A study of Mus musculus with 6 samples.

Results

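p53 is a transcription factor that accumulates when DNA is damaged or growth is disturbed, and it halts the cell cycle by switching on a set of target genes. Mdm2, one of those targets, is the ubiquitin ligase that returns p53 to a low level, and Cdkn1a encodes p21, the inhibitor of cyclin-dependent kinases through which p53 arrests cells in G1. Embryonic stem cells of the mouse are known for a short G1 phase and a weak G1 checkpoint. The genes described here are p53 itself and 9 targets tied to arrest and feedback: Trp53, Mdm2, Cdkn1a, Ccng1, Plk2, Btg2, Sesn1, Sesn2, Zmat3 and Gtse1. They were found by gene symbol among 45281 array probes. Of the 10 genes, 9 had a named probe, with 21 probes in all. No probe is named Trp53 in the platform annotation used here, so the level of p53 mRNA was not analysed.

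The probes were read on Illumina bead arrays with total RNA of a pair of mouse pluripotent lines, 3 arrays each. The i2PS cells came from BALB/c liver, where hepatocytes had been brought to pluripotency in vivo. E14TG2A is an embryonic stem cell line of the Sv129 strain, taken from the inner cell mass of a blastocyst and bought from a cell repository. Both were grown with LIF, at first on mouse embryonic fibroblasts and then for 3 passages on gelatin without them, and no agent or genotype that separates the lines is given beyond strain and origin. Each line is represented by cultures of that line alone, and strain, tissue and reprogramming cannot be told apart in this design. The labels call the cultures biological replicates without naming separate derivations, so the p-values measure the spread between cultures. All differences are i2PS minus E14TG2A on a log2 scale after background correction and quantile normalization, where a difference of 1 is 2-fold, and adjusted p-values are from one limma fit over 8651 tested genes with Benjamini-Hochberg adjustment at 0.05.

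All 10 markers of pluripotent cells were detected on all 6 arrays, and 9 of 10 hepatocyte markers, Alb and Afp among them, were detected on none. The arrays had mean signals of 340 to 357 in i2PS, against 228 in E14TG2A replicate 1 and 359 and 403 in replicates 2 and 3 of that line. On this dim array the deposited signals, before normalization, were 622 for Zmat3, within the 599 to 755 of the i2PS arrays, and 1044 for Gtse1, below their 1584 to 1695. Mdm2 had 1923 there, just above the 1600 to 1860 of i2PS, and 1667 by a further probe, within its 1368 to 1697. The Ccng1 probe that stands for the gene had 1831, above the 960 to 1091 of i2PS. Its other probes had 667 and 1116, below their 917 to 960 and 1457 to 1619. Cdkn1a, at 527, was above the 268 to 341 of i2PS. After normalization the lines did not overlap for any of these probes.

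To show where p53 motifs lie, the sequence before the start site is given first for the 4 genes with a match to the 10-letter p53 consensus, the unit that p53 binds in pairs. The windows are the 250 bases upstream of an annotated start site in RefSeq, build GRCm38.p6, written 5′ to 3′ on the strand of the gene, and capitals mark the matched decamers and, in Cdkn1a, also a decamer with 1 mismatch that forms a pair with a matched one. Such a window was found for 8 of the 9 genes with a named probe, 11 windows in all, and Zmat3 had no entry.
Cdkn1a, chr17:29090729-29090978, plus strand: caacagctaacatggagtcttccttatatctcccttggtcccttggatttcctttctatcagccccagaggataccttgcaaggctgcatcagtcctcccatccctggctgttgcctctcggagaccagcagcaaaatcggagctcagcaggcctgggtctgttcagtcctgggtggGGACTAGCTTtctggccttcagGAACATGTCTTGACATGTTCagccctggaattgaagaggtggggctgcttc
Mdm2, chr10:117710759-117711008, minus strand: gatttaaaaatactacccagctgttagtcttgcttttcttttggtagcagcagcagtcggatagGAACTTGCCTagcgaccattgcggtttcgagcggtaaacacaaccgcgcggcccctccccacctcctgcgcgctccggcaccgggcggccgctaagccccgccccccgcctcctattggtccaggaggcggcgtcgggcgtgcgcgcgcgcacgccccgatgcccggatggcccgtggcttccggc
Ccng1, chr11:40755287-40755536, minus strand: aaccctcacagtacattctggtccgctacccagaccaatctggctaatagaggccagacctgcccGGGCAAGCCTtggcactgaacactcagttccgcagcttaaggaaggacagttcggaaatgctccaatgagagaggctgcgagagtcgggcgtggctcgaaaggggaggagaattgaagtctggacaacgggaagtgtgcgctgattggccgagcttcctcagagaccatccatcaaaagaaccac
Sesn1, chr10:41887189-41887438, plus strand, the downstream of its 2 annotated starts: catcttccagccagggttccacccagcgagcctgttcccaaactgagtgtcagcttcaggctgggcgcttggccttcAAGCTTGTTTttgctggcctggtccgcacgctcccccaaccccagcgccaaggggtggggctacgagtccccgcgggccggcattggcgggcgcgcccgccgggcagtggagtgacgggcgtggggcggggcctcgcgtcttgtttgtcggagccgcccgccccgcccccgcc

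The p53 decamer consensus reads the same on both strands. It was present in 4 of the 11 windows and in 7.13% of the 32851 windows of all annotated genes. Cdkn1a alone among the members held decamers in pairs, defined as 2 decamers at most 13 bases apart with at most 1 mismatch in all and none in the 4-base core, an arrangement found in 0.356% of all windows. One pair, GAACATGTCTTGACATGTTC, ran from base -51 to base -32 before the start with no spacer and 1 mismatch. Its first decamer matched in full and its second carried the mismatch. The second pair ran from -73 to -42 with a spacer of 12 bases and 0 mismatches, and it ended in the decamer with which the other pair began. Both pairs lay before the upstream of the 2 annotated starts of Cdkn1a. The window of its downstream start, chr17:29093519-29093768, held no decamer and no pair. The CHR element TTTGAA, which marks genes of G2 and mitosis, was searched on both strands and stood in 0 of the 11 windows, against 16% of all windows. CCAAT boxes, searched as CCAAT on both strands, stood in 8 of the 11 windows and in 33.8% of all. The 11 windows held 54.0 to 73.2% G and C, against a median of 52.4% over all windows. The motif shares were not adjusted for this. These matches describe letters in short windows. Known p53 sites can lie outside them, as in the first intron of Mdm2.

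Of the 8 members that could be tested, 7 were lower in i2PS and 1, Sesn1, was higher. Over all 8651 tested genes 43.7% passed the threshold, 20.4% as lower and 23.3% as higher in i2PS. A fall of at least 2-fold was found in 4 of the 8, against 4.65% of all tested genes, and a rise of that size in 0 of the 8, against 3.16%. Ccng1 is among the 4 by the probe that stands for it, at -1.91, and by the mean of its probes, at -1.03. Its other probes were at -0.72 and -0.47, and it fell less than 2-fold when any 1 E14TG2A array was left out. The 8 members were detected on all 6 arrays, so that none entered the test through 1 line alone. Their lines did not overlap in any of the 8 cases, as was so for 55.8% of all tested genes. The 7 lower members compare with 25.6% of genes that were lower without overlap. The median difference was -0.99 over the 8 members and 0.03 over all tested genes.

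**Figure D1:**
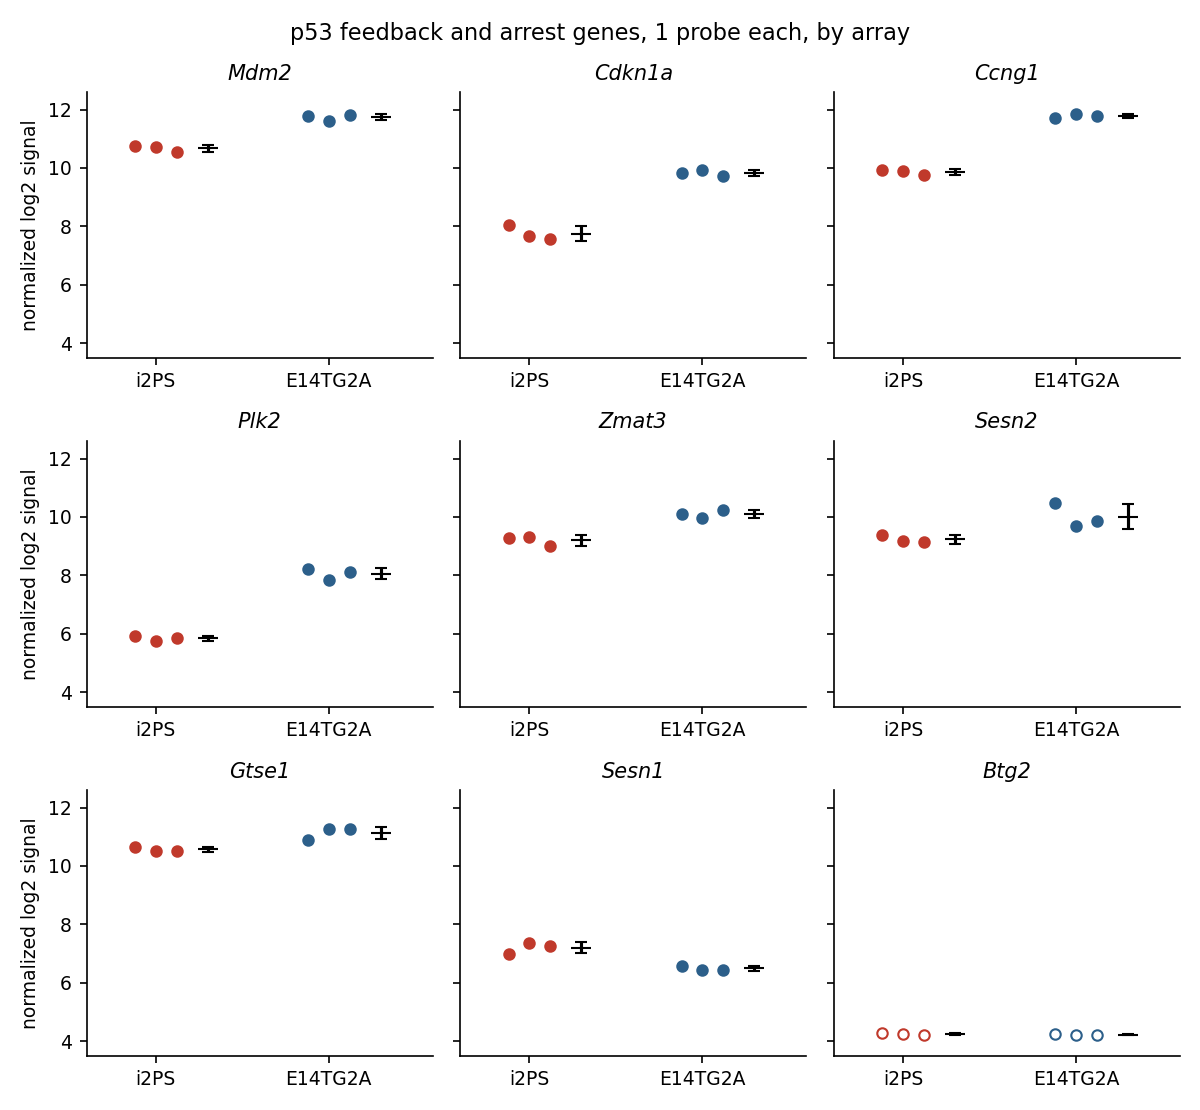
Normalized log2 signal of 1 probe per gene, with i2PS arrays at the left and E14TG2A arrays at the right of each panel (points, 3 arrays each; bar, mean with SD). Mdm2, Cdkn1a, Ccng1, Plk2, Zmat3, Sesn2 and Gtse1 are lower in i2PS and Sesn1 is higher, with no overlap between lines, while Btg2 (open points) was detected on no array.

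Mdm2 and Ccng1 act back on p53, and both were lower in i2PS. Mdm2, which ubiquitinates p53, had normalized log2 signals of 10.75, 10.71 and 10.53 in i2PS, against 11.77, 11.62 and 11.81 in E14TG2A. Every i2PS array lay below every E14TG2A array, by 2.09-fold on average (log2 difference -1.07 with a standard error of 0.11, n = 3 per line; adjusted p = 0.000113 by limma). Errors after ± in what follows are standard errors of a difference. A further probe of Mdm2 differed by -1.15 ± 0.12, and the last of its 3 probes was detected on no array. Ccng1, cyclin G1, recruits a phosphatase to Mdm2 and so also acts on p53. Of its 3 probes the one with the highest mean over the arrays read 9.93, 9.90 and 9.75 in i2PS and 11.70, 11.85 and 11.77 in E14TG2A, a difference of -1.91 ± 0.11 (limma adjusted p = 4.98e-06). Only 0.959% of tested genes differed by more in either direction.

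The 3 Ccng1 probes gave unequal sizes for the same gene. The other probes differed by -0.72 ± 0.12 and -0.47 ± 0.10, and their 95% intervals, -0.99 to -0.46 and -0.71 to -0.24, did not meet the -2.16 to -1.66 of the first. The signal of the first probe minus that of ILMN_2702233 on the same array was 0.16, 0.20 and 0.07 in i2PS, against 1.47, 1.70 and 1.56 in E14TG2A. That within-array gap shrank by 1.43 ± 0.13 in i2PS (limma over 4190 probe pairs, adjusted p = 0.00126), and the gap to ILMN_2710229 shrank by 1.19 ± 0.14 (adjusted p = 0.00209). This comparison was chosen after the values were seen. Of all probe pairs of a gene, 5.39% passed the same test, and 25 of the 4190 had a larger unequal change than Ccng1. Of the 8 pairs among members, both Ccng1 pairs passed and the other 6 did not.

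The unequal probes set the size reported for Ccng1. Without any 1 of the E14TG2A arrays, ILMN_2710229 had the highest mean and stood for the gene, and the gene was then at -0.81 without replicate 1, -0.69 without replicate 2 and -0.67 without replicate 3. The mean of the 3 probes was at -1.03. Ccng1 passed the threshold as lower in i2PS in each case, with adjusted p up to 0.00544.

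**Figure D2:**
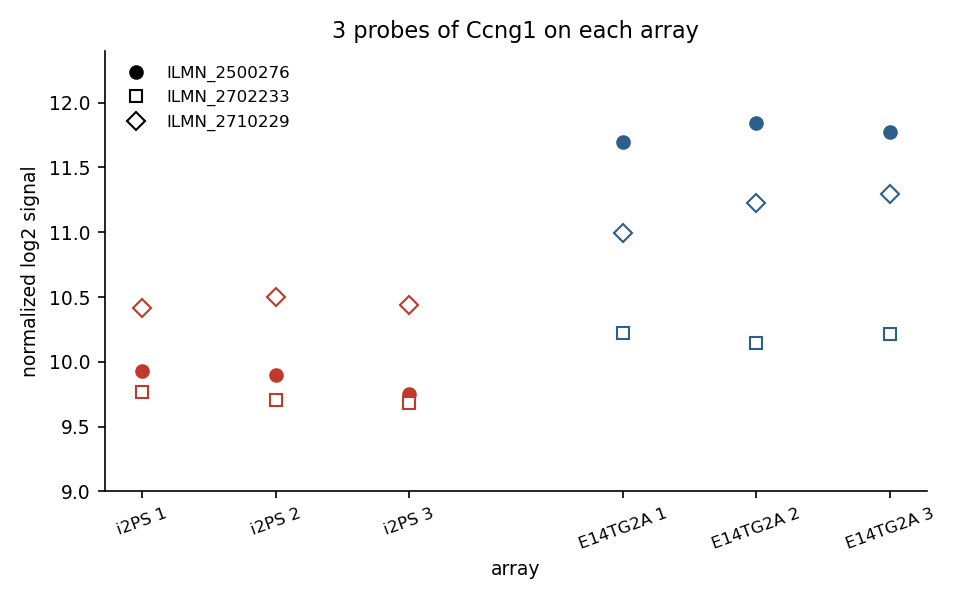
Normalized log2 signal of the 3 Ccng1 probes on each i2PS array (left) and each E14TG2A array (right), with the probe that stands for the gene filled. The filled probe lies 0.07 to 0.20 above the square one, ILMN_2702233, in i2PS and 1.47 to 1.70 above it in E14TG2A.

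Cdkn1a and Plk2, which both act in G1, had the lowest differences of the members. Cdkn1a, whose product p21 inhibits CDK2 and binds PCNA, read 8.04, 7.65 and 7.56 in i2PS, against 9.84, 9.93 and 9.73 in E14TG2A. The lowest E14TG2A array was above the highest i2PS array by more than the spread of either line, and the difference was 4.24-fold (log2 difference -2.08 ± 0.14; limma adjusted p = 1.07e-05). All 3 probes were detected and lower in i2PS, the others at -1.88 ± 0.12 and -2.27 ± 0.15, and the gaps between probes did not pass the test of unequal change. Cdkn1a held rank 41 from the lowest difference among tested genes. Plk2, a polo-like kinase of G1 and of centriole duplication, read 5.93, 5.75 and 5.86 in i2PS and 8.21, 7.84 and 8.13 in E14TG2A. Its single probe was near the lower end of detection in i2PS, with deposited signals of 135 to 136 there and 223 to 448 in E14TG2A. The difference was -2.21 ± 0.13 (limma adjusted p = 4.98e-06), at rank 34 from the lowest, and shrank to -1.36 without background correction and in the authors' processed table.

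Btg2, an antiproliferative partner of the CCR4-NOT deadenylase, was not measurable. Its only probe was detected on no array, with deposited signals of 86.9 to 91.3 in i2PS and 81.8 to 92.7 in E14TG2A. Gtse1, a protein of S and G2 phase that in human cells carries p53 out of the nucleus, read 10.64, 10.53 and 10.52 in i2PS, against 10.89, 11.25 and 11.25 in E14TG2A. The lines were separate but close, and at -0.57 ± 0.13 (limma adjusted p = 0.00623) it had the smallest fall of the 7. Over all tested genes 25.4% differed by more in either direction. A further Gtse1 probe differed by -0.73 ± 0.19, and the last of the 3 was detected on 1 i2PS array.

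Zmat3, an RNA-binding zinc finger protein that p53 induces, read 9.28, 9.32 and 8.99 in i2PS and 10.10, 9.97 and 10.24 in E14TG2A. It differed by -0.91 ± 0.13 (limma adjusted p = 0.000549), from 1 probe.

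The sestrins, which restrain mTORC1 when amino acids or energy run low, went opposite ways. Sesn2, which binds leucine, read 9.40, 9.16 and 9.14 in i2PS, against 10.48, 9.68 and 9.86 in E14TG2A. The E14TG2A arrays spread widely, with an SD of 0.14 in i2PS and 0.42 in E14TG2A, where replicate 1 stood above the other two. The difference was -0.78 ± 0.20 (limma adjusted p = 0.0110) with all arrays and -0.54 without that replicate (adjusted p = 0.00681). A further Sesn2 probe differed by -0.77 ± 0.21. Sesn1 read 7.0, 7.35 and 7.25 in i2PS, above the 6.57, 6.45 and 6.45 of E14TG2A. It rose by 0.71 ± 0.12 (limma adjusted p = 0.00153), and a further probe rose by 0.99 ± 0.21. Without background correction the rise of Sesn1 was 0.43 (adjusted p = 0.00143). The third member of the family, Sesn3, missed the threshold at -0.27 ± 0.14 (limma adjusted p = 0.13), detected on 2 i2PS and 3 E14TG2A arrays.

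**Figure D3:**
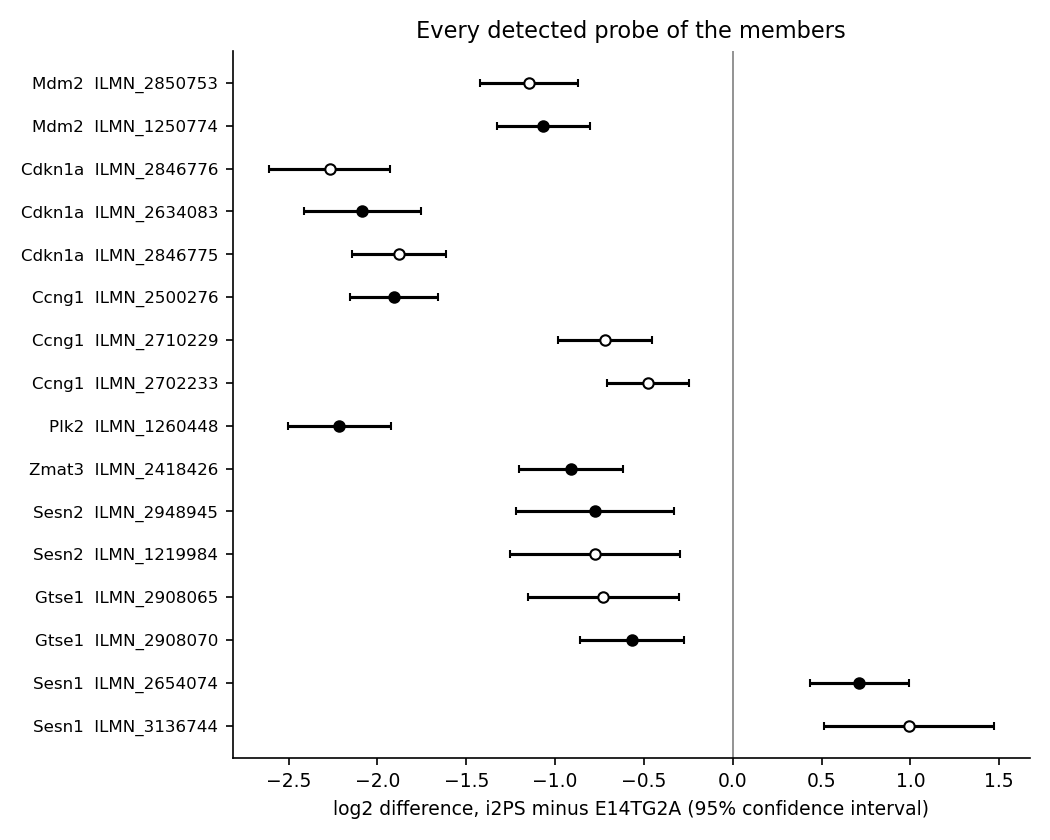
Log2 difference, i2PS minus E14TG2A, of each detected member probe with its 95% confidence interval (filled points, the probe that stands for the gene). All 14 probes of the lower genes lie left of 0 and both Sesn1 probes lie right of it, and the Ccng1 probes are the ones that differ most among themselves.

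Over all probes, 16 of the 21 were detected throughout at least 1 line, and all 16 passed the threshold in the direction of their gene when adjusted over the 12841 such probes. Of the other 5, 4 were detected on no array. The SD within lines was 0.09 to 0.32 for the 8 tested genes, with Ccng1 at the low and Sesn2 at the high end, against a median of 0.15 over all tested genes.

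Close relatives of the members were tested to see whether whole families differed. Of 18 relatives 13 could be tested, of which 3 were lower, 1 was higher and 9 missed the threshold. That is 30.8% called and 23.1% lower, against 43.7% and 20.4% of all tested genes. Their median difference was -0.04. The falls were Btg3 at -0.53 ± 0.12, Tob2 at -0.50 ± 0.12 and Btg1 at -0.46 ± 0.11, all of the antiproliferative family of Btg2. Tob1 of that family was at 0.03 ± 0.16. Plk3, a stress-responsive polo-like kinase, rose by 0.49 ± 0.11, with 7.88, 8.06 and 7.79 in i2PS and 7.37, 7.43 and 7.47 in E14TG2A. With equal medians none of these 4 passed (adjusted p 0.305 to 0.761), and without background correction Btg3 was at -0.27 and Tob2 at -0.23. Plk1, the kinase of mitotic entry, was at -0.28 ± 0.16 and passed only with array weights or without E14TG2A replicate 1, at -0.44 and -0.47. Plk4 was at 0.10 ± 0.15.

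The other CDK inhibitors of the p21 family did not pass. Cdkn1c, p57, read 11.44, 11.53 and 11.57 in i2PS and 11.51, 11.48 and 11.53 in E14TG2A, a difference of 0.01 ± 0.10 with an 95% interval of -0.21 to 0.23. Cdkn1b, p27, was at -0.23 ± 0.18 with overlapping lines. Mdm4, the partner of Mdm2 that masks the activation domain of p53, was at 0.11 ± 0.16 (limma adjusted p = 0.60), and 4 of its 5 probes were detected on at most 1 array. Zmat4 was at 0.11 ± 0.11 and Zmat5 at -0.04 ± 0.13. Trp63 and Trp73, the relatives of p53, and Ccng2, Zmat1 and Zmat2 were too dim to test.

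Genes that act on p53 were mostly not past the threshold. Of 30 listed regulators 23 were tested, with 4 lower, 2 higher and 17 not past, so that 26.1% were called against 43.7% of all tested genes, and their median was 0.11. Hipk2, a kinase that phosphorylates p53, fell by 1.05 ± 0.13 and Kat5, an acetyltransferase that modifies its DNA-binding domain, fell by 0.88 ± 0.11. As means of their probes these were -0.38 and -0.54, and with equal medians neither passed (adjusted p 0.122 and 0.263). Ppm1d, a phosphatase that dampens p53 and is itself a p53 target, fell by 0.42 ± 0.12. The rises were Usp7, which removes ubiquitin from Mdm2 and p53, at 0.41 ± 0.13, and Chek2, a checkpoint kinase, at 0.34 ± 0.12. The calls of Ppm1d, Usp7 and Chek2 were lost in several fits that left out 1 array, and with some other processing. Such fits also have fewer arrays to test with. Their differences kept their direction in all 18 other settings. Usp7 lost its call in 5 of the 6 fits that left out an array, the exception being E14TG2A replicate 1 (adjusted p 0.0559 to 0.0893 in the 5), and Ppm1d without i2PS replicate 2 or 3 or E14TG2A replicate 2 or 3 (0.0540 to 0.0770). Chek2 lost it without i2PS replicate 1, 2 or 3 or E14TG2A replicate 3 (0.0756 to 0.157). Chek2 also missed the threshold with cyclic loess (0.0598), as the mean of its probes (0.0659) and without the filter on dim probes (0.0676), and so did Usp7 without that filter (0.0585). With equal medians Chek2, Usp7 and Ppm1d all missed it (0.368 to 0.797). The number of regulators called was 2 without i2PS replicate 2 or 3, 3 without E14TG2A replicate 3 and 9 without E14TG2A replicate 1. These numbers are given without those of all genes called in the same fits.

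Targets of p53 outside the members were also mostly lower in i2PS. Of 40 listed, 33 were tested, with 22 lower, 1 higher and 10 not past, and 12 were at least 2-fold lower. Thus 66.7% were lower against 20.4% of all tested genes. The list was chosen with earlier results of these data known, so this share is a description. The median difference was -0.81, but -0.44 without background correction and in the authors' processed table, and 4 of the 33 passed with equal medians. Fas and Notch1, both called lower, were detected on no i2PS array, and Ccnk, also lower, on 2. These entered the test through E14TG2A alone. Fas counts among the 12, but with i2PS set at the limit of detection its fall is at least 1.45-fold. Of the 30 other targets detected on all 6 arrays, 19 were lower and 1 was higher. In that setting 1514 of 7620 tested genes were lower. Phlda3, which blocks AKT at the membrane, fell by 1.71 ± 0.14, and Trp53inp1, a stress protein of autophagy and cell death, fell by 1.62 ± 0.14. Tnfrsf10b, the death receptor for TRAIL, fell by 1.40 ± 0.33, but was at -0.82 without background correction and at -0.57 as the mean of its probes. Xpc, which finds lesions for nucleotide excision repair, was the single rise, at 0.36 ± 0.11 (limma adjusted p = 0.0296), and lost its call without i2PS replicate 2 or 3 or E14TG2A replicate 2 (adjusted p 0.0832 to 0.118) and with equal medians (0.490). Without background correction Xpc was at 0.20.

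**Figure D4:**
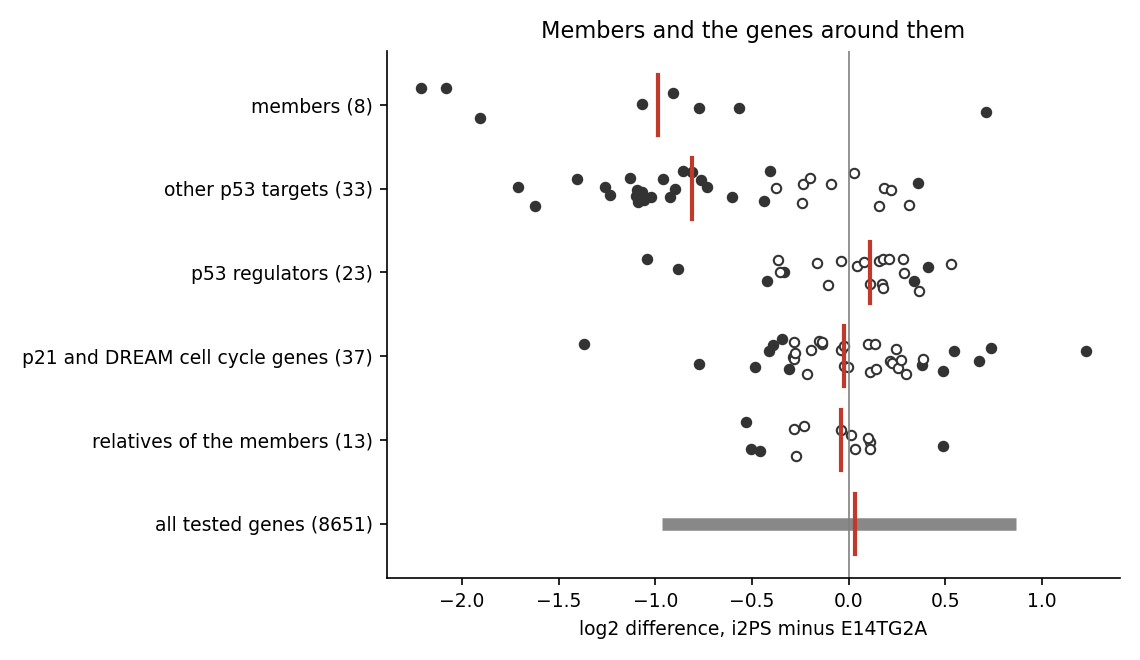
Log2 difference, i2PS minus E14TG2A, of each tested gene (points, filled where past the threshold), with the median of each list (red bar). Rows are the members, the other p53 targets, the p53 regulators, the p21 and DREAM cell cycle genes and the relatives. The last row is the range from the 5th to the 95th percentile of all tested genes (grey, -0.96 to 0.87). The members and the other targets have medians of -0.99 and -0.81, and the other lists lie between -0.04 and 0.11.

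The listed cell cycle genes around p21 did not differ in 1 direction. The list holds kinases and cyclins that p21 inhibits and genes lowered through p21, RB and the DREAM complex. It also holds parts of that route itself, such as Rb1 and E2f4. Levels of mRNA do not measure the inhibition of the kinases. Of 46 listed, 37 were tested, with 8 lower, 6 higher and 23 not past, and a median of -0.02. This is 37.8% called, against 43.7% of all tested genes. Rb1, the retinoblastoma protein through which p21 restrains E2F, fell by 1.37 ± 0.14. Ccnd2, a D-type cyclin, fell by 0.78 ± 0.14 and Cdk4, its kinase, by 0.48 ± 0.12. Leaving out i2PS replicate 2 ended the call of Cdk4 (limma adjusted p = 0.0511), as did equal medians (0.725). The rises were E2f2, an activating E2F, at 1.23 ± 0.13, Ccne2, a cyclin of S-phase entry, at 0.74 ± 0.15, and E2f4, an E2F of the repressive complexes, at 0.68 ± 0.24. Without background correction Ccnd2 was at -0.45, Ccne2 at 0.46 and E2f2 at 0.70, and with equal medians Ccnd2 and Ccne2 did not pass. The lines overlapped for E2f4, which did not pass when replicate 2 or 3 of either line was left out (adjusted p 0.124 to 0.157). It also missed the threshold with a variance trend and robust moderation (0.0586), with equal medians (0.132) and without the filter on dim probes (0.145). Without 1 array the number of these genes called was 7 without i2PS replicate 2 or 3, 9 without E14TG2A replicate 2 or 3, 11 without i2PS replicate 1 and 20 without E14TG2A replicate 1. Here too the counts of all genes called in the same fits are not given.

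The tested genes whose profile over the 6 arrays lay nearest to that of Cdkn1a were H2-Bl, Gap43, Pkia, Aldh1l2 and Ssbp2. Likeness was measured as the Euclidean distance between log2 values minus their mean over the arrays, and it ran from 0.22 for H2-Bl to 0.37 for Ssbp2. Genes chosen for this likeness had to be lower in i2PS, and their log2 differences, from -1.91 for Pkia to -2.22 for H2-Bl, are a description. Without background correction Gap43 was at -0.95, Aldh1l2 at -0.93 and Ssbp2 at -0.86. Gap43 and Ssbp2 were each detected on 1 of the 3 i2PS arrays.

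Markers of other cells were read beside these values. Of 15 fibroblast markers 8 were detected on no array, among them Col1a2, Col3a1, Lum and Postn, and 4 were detected on all arrays. Their summed normalized signal was 1183 to 1280 in i2PS, against 1962 to 2184 in E14TG2A. Within that list Vim fell by 2.03 ± 0.11 and Fn1 by 0.74 ± 0.13, while Thy1 rose by 0.84 ± 0.16 and Twist1 did not pass. Of 6 markers of primitive endoderm 3, Gata4, Sox17 and Foxa2, were detected on no array, and the summed signal was 1344 to 1383 in i2PS and 2253 to 2473 in E14TG2A. That sum is mostly Sparc, the brightest of the list, which fell by 0.95 ± 0.10. Dab2 fell by 0.31 ± 0.10, while Gata6 was at 0.33 ± 0.14 and did not pass. Markers of endothelium went both ways, with summed signals of 524 to 607 in i2PS and 518 to 586 in E14TG2A. Robo4 rose by 2.01 ± 0.13 and Esam by 1.86 ± 0.15, both detected in i2PS alone. Pecam1 fell by 1.16 ± 0.11, Tek did not pass and Kdr was detected on no array. Of 6 markers of liver macrophages and blood on the array, 5 were detected on no array, and Cd74 did not pass. The summed signal of the 10 pluripotency markers was 56314 to 57917 in i2PS and 47456 to 51736 in E14TG2A. The part of such cells in the falls of the p53 targets was not tested, and in bulk RNA fewer expressing cells and less RNA per cell cannot be told apart.

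**Figure D5:**
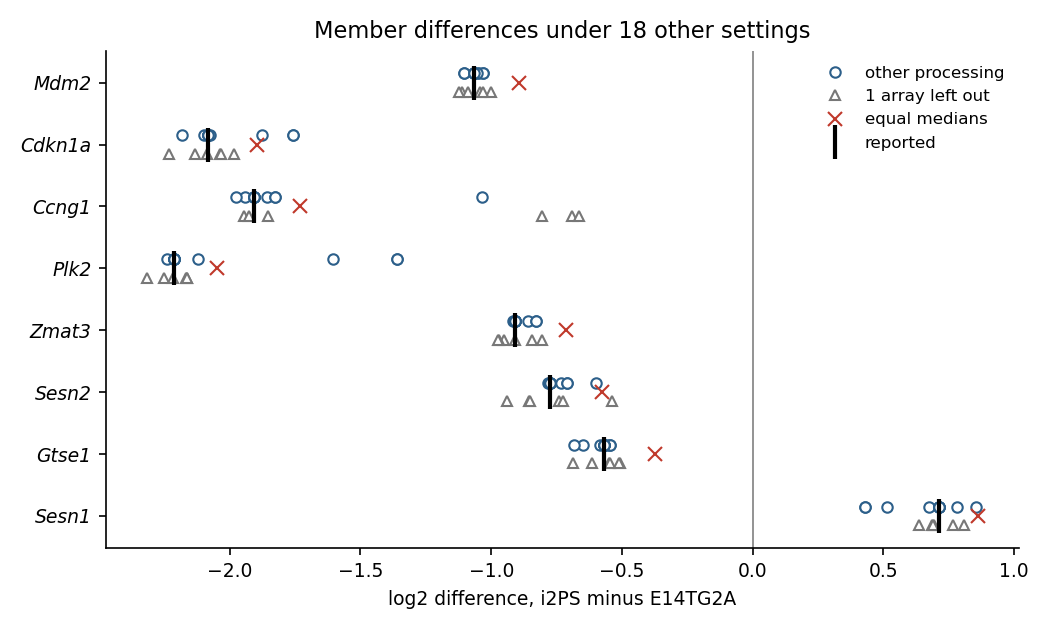
Log2 difference, i2PS minus E14TG2A, of the 8 tested members as reported (bar), with other processing (circles), with equal medians (crosses) and with each array left out (triangles). No value crosses 0, and Ccng1 splits between values from -1.97 to -1.73 and values from -1.03 to -0.67.

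Across 18 other settings the 8 members gave 144 values, of which 139 kept the direction and stayed past the threshold. The other 5 all came from giving the arrays equal medians in place of quantile normalization. There the median of all tested genes was 0.19 rather than 0.03, and 634 genes passed. All named genes had the same standard error in that setting, 0.36, against 0.11 as reported for Mdm2. Its adjusted p-values therefore do not follow the spread of each gene. Cdkn1a, Ccng1 and Plk2 still passed as lower, and Mdm2, Zmat3, Sesn2, Gtse1 and Sesn1 did not (limma adjusted p 0.118 to 0.637), with their directions kept. The 18 settings are not separate checks. Without background correction the member differences equalled those in the authors' processed table, but not the reported ones. In both settings Plk2 moved from -2.21 to -1.36 and Sesn1 from 0.71 to 0.43, while Mdm2 moved from -1.07 to -1.03. The filters on dim probes, the variance trend and the replicate block left the sizes of the member differences as reported.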

How the data were processed

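Total RNA of 3 i2PS and 3 E14TG2A cultures was biotin-labelled and hybridised to Illumina 1-colour arrays. The authors deposited linear probe intensity values from GenomeStudio, per the submitters' processing notes, with no version or settings given. The medians of 88.3 to 103.3 show that arrays were not scaled to each other. The deposited files also hold a detection p-value for every probe and array. A further deposited table of intensity values had equal medians near 96.7 and a rank correlation of 1 with each array. It was used as an alternative.

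Signals were processed with limma 3.58.1 in R 4.3.3. Background was estimated by neqc, using detection p-values in place of control probes, with an offset of 16, then quantile normalization and log2. Tested probes carried 1 gene symbol and were detected, at p below 0.01, throughout at least 1 line. Platform names were updated through the RefSeq table of GRCm38.p6, by gene number for 34807 probes and by accession for 11. Another 67 kept the platform symbol, 18 with several symbols were left out, and 10378 are unlisted. The kept probe with the highest mean stood for a gene. Lines were compared with lmFit and eBayes, and the method was tested on simulated data. Intervals of single probes come from a fit over all kept probes, which gives slightly different errors.

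The members, the 3 other lists and the rule for naming genes were chosen with earlier results of these data known. The genes named were the members, their relatives, up to 3 rises and 3 falls of each list, and the 5 profiles nearest to Cdkn1a. The alternatives were other background corrections and normalizations, the deposited table, other filters on dim probes, probe means, other variance models, weighted arrays, a block for the replicate number, and fits leaving out 1 array. The number of arrays limits the precision.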

Additional observations from a re-analysis of the deposited data

How the results depend on the processing

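With equal medians the counts past the threshold were 3 of the 8 tested members, 0 of the regulators, 4 of the other p53 targets, 2 of the cell cycle genes and 634 of all tested genes, against 8, 6, 23, 14 and 3781. Of the genes called there 357 were higher and 277 lower, against 2017 and 1764. Without the filter on dim probes 3 of 27 tested regulators passed, beside 3401 of 19053 tested genes. With array weights 10 of 23 regulators and 22 of 37 cell cycle genes passed, beside 4771 of all 8651 tested genes. With each array left out, the regulators ranged from 2 to 9, the cell cycle genes from 7 to 20, the other targets from 21 to 25 and the members stayed at 8. The counts of all genes called in these fits are not set beside them, so the ranges are not read as traits of the lists. With equal medians all named genes shared a standard error of 0.36. The cause of these shifts was not tested. Deviations of same-numbered arrays from their line means correlated at 0.01, -0.05 and 0.07. With 3 arrays a line these values cannot show whether same-numbered cultures were handled together, and the labels give only replicate numbers. A block for the replicate number gave 8 members, 7 regulators, 23 other targets, 10 cell cycle genes and 3613 of all genes past the threshold. Under this block Chek2 and E2f4 missed the threshold (limma adjusted p 0.0763 and 0.0757). The median of the cell cycle genes, -0.02 as reported, was 0.18 with equal medians, where that of all tested genes was 0.19, and 0.025 without i2PS replicate 3. Among the named genes, which were recomputed singly, the following 6 changed sign, and none of them had passed the threshold. With equal medians Zmat5 was at 0.14 and Rrm2b at 0.022, with array weights Zmat5 was at 0.054 and Mdm4 at -0.071, and with cyclic loess Cdkn1c was at -0.021. With 1 array left out the ranges were -0.14 to 0.050 for Zmat5, -0.060 to 0.19 for Mdm4, -0.015 to 0.046 for Cdkn1c, -0.022 to 0.24 for Plk4 and -0.12 to 0.16 for Tob1. The planned slide block could not be fitted, as the sources used here give no slide. Genes near background, such as Plk2, Sesn1 and Tnfrsf10b, have differences whose size depends on the background correction.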

Other observations

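Of the genes listed as other p53 targets that missed the threshold, 4 are given here. Whether p53 acts on each of them in mouse cells was not tested. They were chosen after their values were seen, and no test sets them against the members. Gadd45a, which binds PCNA and acts in repair and arrest, was at 0.19 ± 0.13 (log2 difference with its standard error over 3 arrays a line, adjusted p = 0.26 by limma) and Ddb2, which recognises ultraviolet lesions, at 0.22 ± 0.14 (adjusted p = 0.22). Rrm2b, the ribonucleotide reductase subunit that p53 induces, was at -0.09 ± 0.12 (adjusted p = 0.56). Tigar, which lowers glycolytic flux, was at 0.31 ± 0.14 (adjusted p = 0.0945). None of these 4 passed under any of the alternatives run.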
